A study of Homo sapiens with 3 samples.

Results

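FKBP5, SGK1 and ELL2 are steroid-induced genes, and the data described here are the ChIP-seq regions found at them in LNCaP, a human cell line from a prostate carcinoma that responds to androgen. The regions were chosen by position alone: a region belonged to a gene when its centre lay in a window of hg19 set around that gene. The windows were chr6:35530000-35710000 for FKBP5 (180 kb), chr6:134485000-134645000 for SGK1 (160 kb) and chr5:95210000-95305000 for ELL2 (95 kb). In all, 25 regions of 59983 met this rule, of which 18 lay in the FKBP5 window, 3 in the SGK1 window and 4 in the ELL2 window. By library, 8 of 13382 were CK2α regions, 9 of 24782 were Pol II regions with TBBz and 8 of 21819 were Pol II regions with DMSO.

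The study asked where the kinase CK2α sits on the genome and how RNA polymerase II (Pol II) binding differs when CK2 is inhibited. ChIP-seq recovers and sequences the DNA bound by a protein, and each group was 1 library. All cells spent 3 days in steroid-depleted serum and then received 100 nM of the androgen dihydrotestosterone (DHT). The first group was immunoprecipitated for CK2α after DHT alone, for a time given as 2.5 hours in one label and 90 min in another. The second was immunoprecipitated for Pol II after 25 μM TBBz, an inhibitor of CK2, for 2.5 hours with DHT for the last 1.5 hours. The last was immunoprecipitated for Pol II after DMSO, the vehicle, on the same schedule. The source name of both Pol II libraries mentions TBBz, so they were told apart by their treatment labels. Cells without DHT were not analysed here, so the lists hold no measure of induction itself.

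DHT binds the androgen receptor, which enters the nucleus and activates genes through hormone response elements, often at enhancers far from the start of the gene. FKBP5 encodes a co-chaperone that joins HSP90 in steroid receptor complexes; it restrains the glucocorticoid receptor and is known to promote androgen receptor activity in prostate cancer cells. SGK1 encodes a serine/threonine kinase first known for its induction by serum and glucocorticoids, and ELL2 encodes a subunit of the super elongation complex, which speeds Pol II along its template. CK2 is a serine/threonine kinase with a very broad range of substrates, and CK2α is one of its catalytic subunits.

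Per the file headers, 19021404 tags were counted for CK2α, 22345614 for Pol II after TBBz and 15466579 for Pol II after DMSO. Called regions held 1.65%, 12.6% and 6.79% of those tags in that order. With 1 library per group there is no replicate spread, so no difference between libraries was tested, and every interval below covers counting error only. The lists give a position for each region and a place in the list, but no tag value per region.

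RefSeq lists 2 starts for FKBP5 and 3 for SGK1 among its promoter entries, which matched 2 of the 3 genes. All are on the minus strand. These sequences are shown because Pol II stood at more than 1 place in the FKBP5 window and at a single place in the SGK1 window. Each is the 250 bases before an annotated start, in GRCh38.p14 coordinates, which differ from the hg19 positions of the regions and were not converted. For SGK1 the most upstream and the most downstream start are shown. Capitals mark 2 motifs searched on both strands, the TATA box TATAAA and the GC box GGGCGG, which do not overlap each other here.
FKBP5 upstream start, chr6:35728584-35728833: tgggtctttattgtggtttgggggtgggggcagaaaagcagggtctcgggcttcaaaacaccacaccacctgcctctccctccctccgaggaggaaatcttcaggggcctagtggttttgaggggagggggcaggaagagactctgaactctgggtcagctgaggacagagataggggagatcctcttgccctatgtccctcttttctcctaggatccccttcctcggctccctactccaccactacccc
FKBP5 downstream start, chr6:35688916-35689165: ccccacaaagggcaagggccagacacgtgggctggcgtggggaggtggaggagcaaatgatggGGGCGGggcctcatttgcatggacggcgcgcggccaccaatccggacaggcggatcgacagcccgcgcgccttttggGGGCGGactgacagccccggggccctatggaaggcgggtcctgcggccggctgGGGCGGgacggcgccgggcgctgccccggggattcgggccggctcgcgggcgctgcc
SGK1 upstream start, chr6:134318113-134318362: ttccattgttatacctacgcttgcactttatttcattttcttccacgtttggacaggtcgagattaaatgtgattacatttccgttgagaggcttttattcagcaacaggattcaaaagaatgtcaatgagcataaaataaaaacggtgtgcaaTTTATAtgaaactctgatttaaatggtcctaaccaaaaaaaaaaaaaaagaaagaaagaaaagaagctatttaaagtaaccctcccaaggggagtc
SGK1 downstream start, chr6:134174867-134175116: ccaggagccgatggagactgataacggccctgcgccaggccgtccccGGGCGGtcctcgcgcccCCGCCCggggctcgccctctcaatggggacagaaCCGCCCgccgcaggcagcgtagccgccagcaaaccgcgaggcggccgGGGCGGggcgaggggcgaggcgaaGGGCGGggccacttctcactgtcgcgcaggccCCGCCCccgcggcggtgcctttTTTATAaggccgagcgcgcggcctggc

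The starts of each gene differed in base composition. The FKBP5 downstream start was 74.8% G and C, with 29 CpG pairs and 3 GC boxes, while the upstream start was 57.6% G and C, with 3 CpG pairs and no GC box. The SGK1 downstream start was 76.0% G and C, with 35 CpG pairs and 6 GC boxes. It had an exact TATAAA match on the opposite strand at bases -27 to -22 before the start. On the strand of the gene these bases run into TATAAGG, which a search for the exact letters does not count. The strand of an exact match is therefore not to be read as the direction of an element. The upstream SGK1 start was 33.6% G and C, and the start between them 41.6%, each with 1 TATA box and no GC box. The TATA box of the upstream start was on the opposite strand at bases -96 to -91. That of the start between them was on the same strand at bases -15 to -10. Over all 35116 RefSeq promoter entries cut to the same 250 bases, the median was 58.0% G and C, 42.6% held a GC box and 10.7% held a TATA box. The hormone response half-site AGAACA was in none of the 5 sequences, against 12.4% of all entries. The full palindrome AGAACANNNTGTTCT was in none of them and in 1 of the 35116. The E-box CACGTG, also searched but not in capitals above, was in the FKBP5 downstream start and in no other. It was in 6.34% of all entries. These are letters in a window and are no measure of binding.

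Pol II and CK2α regions stood at several places spread over the FKBP5 window, whereas the SGK1 and ELL2 windows each held a single cluster. The FKBP5 window held 5 CK2α regions, 7 Pol II regions with TBBz and 6 with DMSO. The SGK1 window held 1 region of each list. The ELL2 window held 2 CK2α regions and 1 Pol II region with TBBz and 1 with DMSO.

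**Figure D1:**
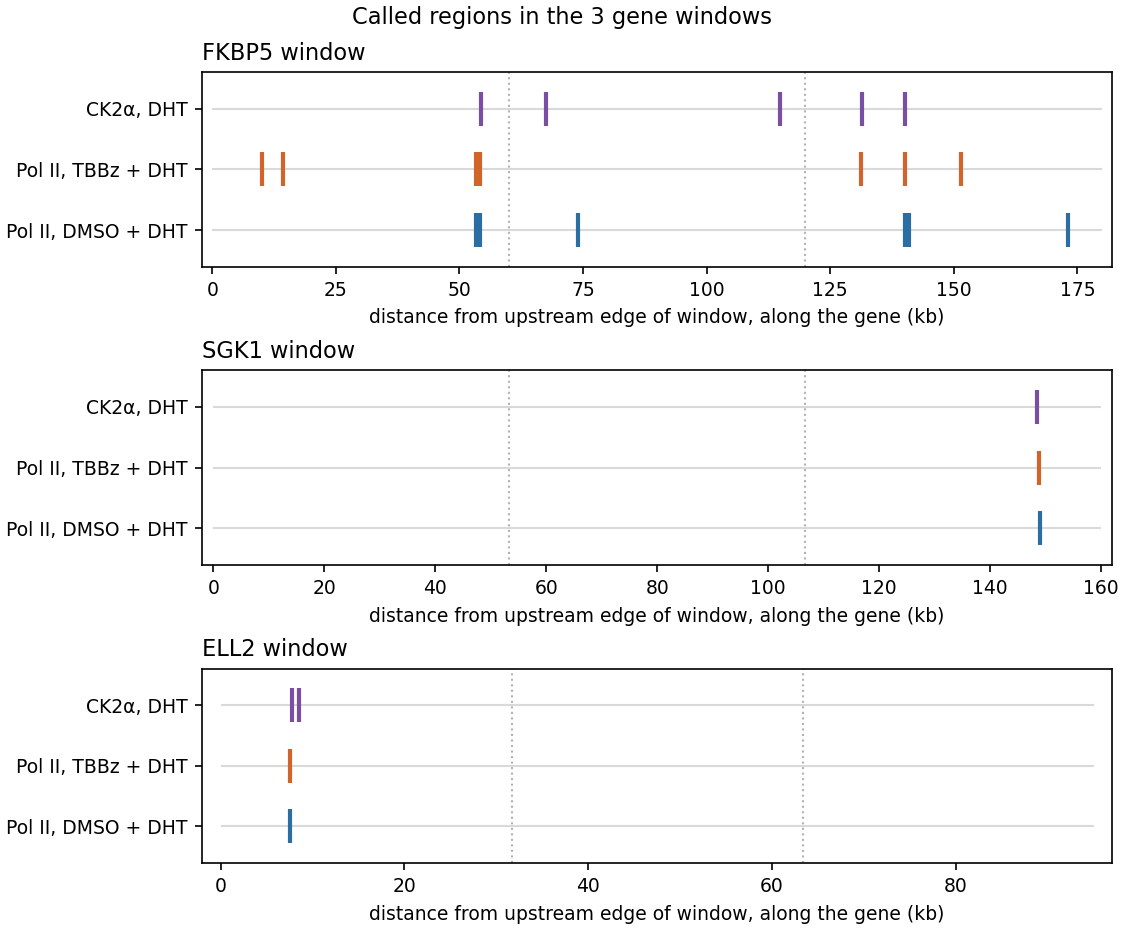
Position of every called region in the 3 windows, as distance from the upstream edge in kb along the direction of transcription, with 1 row per library; marks are not drawn to the width of a region and dotted lines divide each window into 3 equal parts. FKBP5 has 5, 7 and 6 marks in the rows from top to bottom, while SGK1 has 1 in each row and ELL2 has 2, 1 and 1.

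Set against the genome, the FKBP5 window held more regions of every list than most windows of its size. When all chromosomes were divided into windows of 180 kb, 2.77% of the 17166 windows held at least 5 CK2α regions, 4.88% held at least 7 TBBz regions and 5.49% held at least 6 DMSO regions. Over the 8572 windows with a region of any list the shares were 5.54%, 9.76% and 11.0%. Over the span of the chromosomes that the lists cover, the density of FKBP5 regions was 6.42 times that of the whole CK2α list, 4.85 times that of the TBBz list and 4.72 times that of the DMSO list. SGK1 held 1 region of each list. Of all 19314 windows of 160 kb, 33.3% held at least 1 for CK2α, 44.3% for TBBz and 41.7% for DMSO, and of the 9227 with any region the shares were 69.8%, 92.7% and 87.3%. The density was 1.44, 0.780 and 0.886 times that of the lists in the same order. For ELL2, 10.4% of all 32535 windows of 95 kb held at least 2 CK2α regions, and 34.5% and 32.2% held at least 1 region with TBBz and with DMSO. Of the 12352 windows with any region the shares were 27.4%, 90.9% and 84.9%. The density was 4.86 times that of the list for CK2α, and 1.31 and 1.49 times for TBBz and DMSO. The CK2α value rests on 2 regions whose centres lie 761 bp apart.

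**Figure D2:**
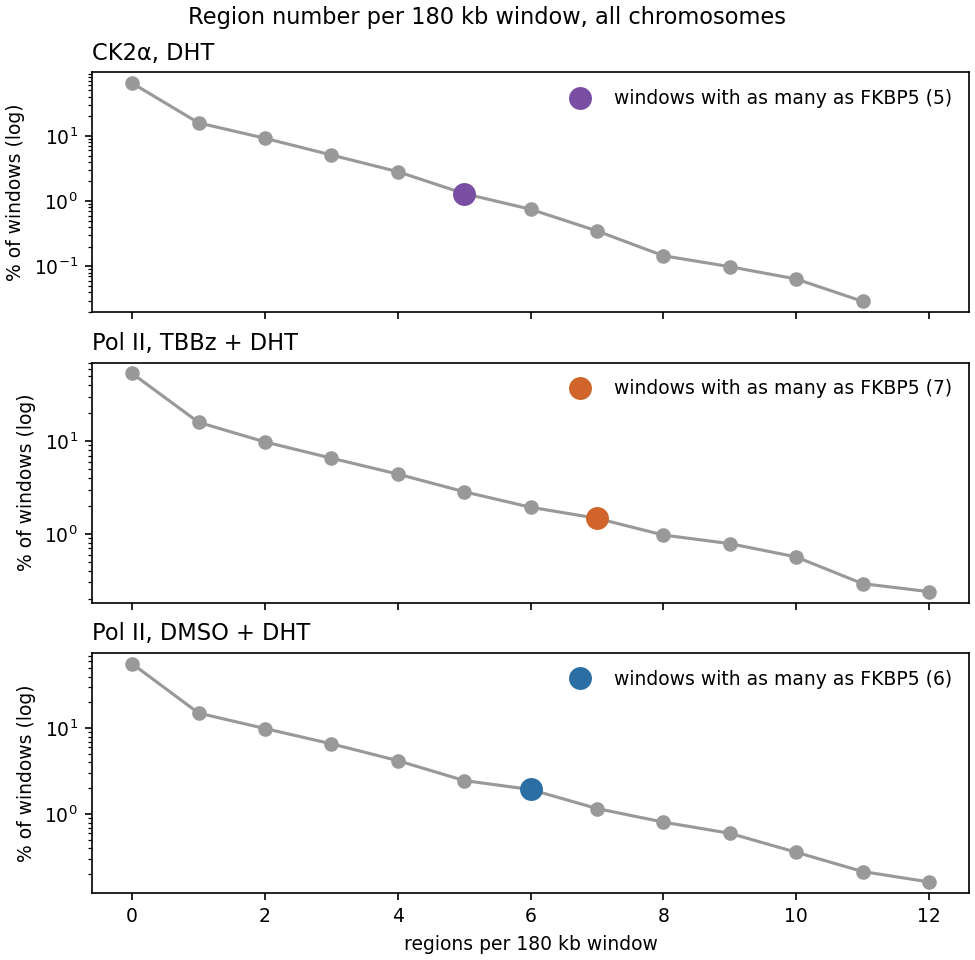
Share of all 180 kb windows (log scale) by the number of regions each holds, for CK2α, Pol II with TBBz and Pol II with DMSO from top to bottom. The large coloured point is the share of windows with the same number as the FKBP5 window (5, 7 and 6); windows with 0 regions are the most frequent in each panel and the axis ends at 12 regions.

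The Pol II site of FKBP5 listed earliest stood in the upstream part of its window, where the window is divided into 3 equal parts, and it was the same site in both conditions. It was chr6:35656541-35656741 with TBBz and chr6:35656538-35656738 with DMSO, and their centres were 3 bp apart. A second region followed 743 bp downstream with TBBz (chr6:35655798-35655998) and 771 bp downstream with DMSO (chr6:35655767-35655967), so the site appeared as a pair in both libraries. Of all TBBz regions 15.7%, and of all DMSO regions 13.2%, had another region of their own list within 1 kb; in the 3 windows this held for 2 of 9 with TBBz and 4 of 8 with DMSO. CK2α had a region at this site too. At chr6:35655617-35655817 it shared 20 bp with the second TBBz region and 51 bp with the second DMSO region, and lay 921 bp downstream of the centre of the first DMSO region.

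At SGK1 all 3 lists placed their single region near the downstream end of the window, and none overlapped another. CK2α stood at chr6:134496467-134496667, Pol II with TBBz at chr6:134496091-134496291 and Pol II with DMSO at chr6:134495883-134496083. The TBBz centre was 208 bp upstream of the DMSO centre, with 7 bp of unshared sequence between the regions, and the CK2α centre was 376 bp upstream of the TBBz one and 584 bp upstream of the DMSO one. No list had a centre in the 148.433 kb between the CK2α region and the upstream edge. The 3 annotated SGK1 starts are 140.251 kb and 2995 bp apart in GRCh38.p14. All 3 regions lie within less than the smaller of these spacings. If the 160 kb window holds all 3 starts, the downstream starts lie in the same last part of it as the regions. The downstream end of this window is therefore not to be read as the end of the gene. How far the regions lie from a start was not measured.

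At ELL2 Pol II stood at one place in both conditions and CK2α stood just downstream of it. Pol II was at chr5:95297387-95297587 with TBBz and chr5:95297381-95297581 with DMSO, with centres 6 bp apart, 7.51 and 7.52 kb from the upstream edge. The CK2α regions were chr5:95297094-95297294 and chr5:95296333-95296533. They lay 293 and 1054 bp downstream of the TBBz centre and 287 and 1048 bp downstream of the DMSO centre, and neither overlapped Pol II. The remaining 86.433 kb of the window, towards the end of the gene, held no region of any list.

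**Figure D3:**
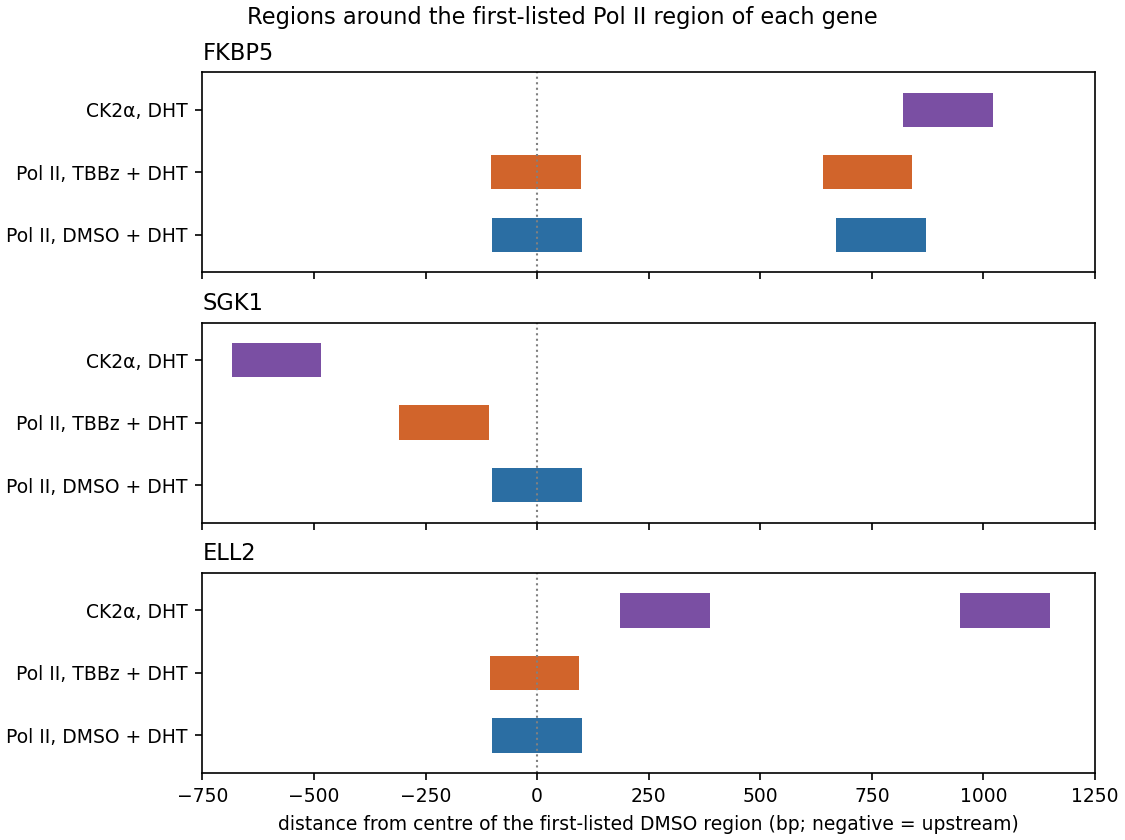
Regions within 1.5 kb of the first-listed DMSO Pol II region of each gene, drawn to scale as bars against the distance in bp from the centre of that region, with negative values upstream. The Pol II bars at 0 bp of FKBP5 and ELL2 line up between TBBz and DMSO within 6 bp, the SGK1 bar with TBBz lies 208 bp upstream of the one with DMSO, and CK2α bars lie downstream at FKBP5 and ELL2 and upstream at SGK1.

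These offsets can be read against those of all Pol II regions. Among the 21819 DMSO regions, 8.92% had a TBBz centre within 3 bp, as the leading FKBP5 region did, 15.2% within 6 bp (ELL2) and 74.3% within 208 bp (SGK1). A TBBz centre within 10 bp was found for 3 of the 8 DMSO regions of these genes, against 23.0% of the whole list. The SGK1 arrangement, with no overlap but a TBBz centre within 500 bp, held for 1 of the 8 and for 8.27% of all DMSO regions.

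Downstream in the FKBP5 window, about 140 kb from the upstream edge, both Pol II lists held the same region to the base, chr6:35569678-35569878. Such an exact match was found for 1.59% of all DMSO regions. CK2α overlapped it by 148 bp at chr6:35569731-35569931. With DMSO a second Pol II region stood 628 bp farther downstream at chr6:35569050-35569250, and no TBBz region overlapped it. This site and the paired site in the upstream part gave the 2 DMSO regions of these genes, of 8, that overlapped both TBBz Pol II and CK2α; among all DMSO regions the share was 18.4%.

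The other Pol II regions of the FKBP5 window had no partner within 2 kb in the other Pol II list. The same held for 21.1% of all TBBz regions and 13.9% of all DMSO regions, and no difference between the conditions was tested. With TBBz there were regions at chr6:35699809-35700009 and chr6:35695651-35695851, the 2 nearest the upstream edge, and at chr6:35578654-35578854 and chr6:35558348-35558548 in the downstream part. None of the 4 had a DMSO centre within 2 kb: the distances were 43.271, 39.113, 8.976 and 10.702 kb in that order. With DMSO there were regions at chr6:35635956-35636156 in the middle part and at chr6:35536713-35536913, the region nearest the downstream edge. Their nearest TBBz centres were 19.842 and 21.635 kb away. The middle part held no TBBz region and 1 DMSO region, and the longest stretch without a Pol II centre was 77.144 kb with TBBz and 66.278 kb with DMSO.

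The regions without a partner stood at different places among regions of their kind. Of the 5236 TBBz regions with no DMSO centre within 2 kb, which had a median place at 84.1% of the list, the region at chr6:35699809-35700009 ranked 53 and that at chr6:35695651-35695851 ranked 63. The other 2, chr6:35578654-35578854 and chr6:35558348-35558548, ranked 1708 and 3056. Of the 3042 DMSO regions with no TBBz centre within 2 kb, with a median place at 86.7% of the list, chr6:35536713-35536913 ranked 265 and chr6:35635956-35636156 ranked 1670. Among the 3812 TBBz regions with no DMSO centre within 10 kb the upstream pair ranked 23 and 26. The nearest CK2α centres of this pair were 44.192 and 40.034 kb away. The pair lay 43.268 and 39.110 kb upstream of the leading TBBz region, and the 2 annotated FKBP5 starts are 39.668 kb apart in GRCh38.p14. In the RefSeq table RPL36P9, LOC124900228, MIR5690 and LOC285847 overlap FKBP5, and ARMC12 is the next coding gene upstream. None of them was placed in hg19, and which gene these regions belong to was not tested.

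Counted over the 3 genes, 5 of 9 TBBz regions had no DMSO overlap (55.6%, exact 95% binomial interval 21.2 to 86.3%), against 35.0% of the whole TBBz list. In the DMSO list 4 of 8 had no TBBz overlap (interval 15.7 to 84.3%), against 26.2% of the whole list. With partners allowed within 2 kb the counts were 4 of 9 with TBBz and 2 of 8 with DMSO, against 21.1% and 13.9%. Both intervals of the overlap counts include the share of their whole list. All of the regions without a partner within 2 kb lay in the FKBP5 window, which held 7 of the 9 TBBz and 6 of the 8 DMSO regions. Per the file headers, 35.3% of candidate regions with TBBz and 53.7% with DMSO were removed for lack of contrast with the surrounding 10 kb, so a site missing from a list may still carry Pol II. For CK2α 76.2% were removed, so a site without a CK2α region may likewise carry CK2α.

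CK2α overlapped Pol II of either list at 3 of its 8 regions (37.5%, 8.52 to 75.5%), against 43.9% of all CK2α regions. All 3 lay in the FKBP5 window, which held 5 of the 8. Overlap with both Pol II lists was found for 2 of 8, against 28.9%. The other one, chr6:35578541-35578741, shared 88 bp with a TBBz region and none with DMSO, an arrangement held by 7.10% of all CK2α regions. In the reverse direction 3 of 9 TBBz regions overlapped CK2α, against 19.4% of the list, and 2 of 8 DMSO regions did, against 22.6%. The FKBP5 regions chr6:35642447-35642647 and chr6:35595076-35595276 had no Pol II centre of either list within 2 kb, as 16.4% of all CK2α regions did. Their nearest Pol II centres were 13.351 and 16.422 kb away with TBBz and 6.491 and 25.398 kb away with DMSO.

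The 3 genes came in a different order in each list. With TBBz the first region of FKBP5 was at place 1582 (6.38% of the list), that of ELL2 at 4904 (19.8%) and that of SGK1 at 6136 (24.8%). With DMSO it was place 563 (2.58%) for FKBP5, 1007 (4.62%) for SGK1 and 2235 (10.2%) for ELL2. Within chromosome 6 the leading FKBP5 and SGK1 regions ranked 68 and 289 of 1293 with TBBz, and 32 and 50 of 1129 with DMSO. In the CK2α list ELL2 came first at place 2682 of 13382, then FKBP5 at 3117 (23.3%) and SGK1 at 3672 (27.4%). The order was taken to follow strength, which no value in the files tests, and the lists differ in length, so a place in one is not compared with a place in another.

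**Figure D4:**
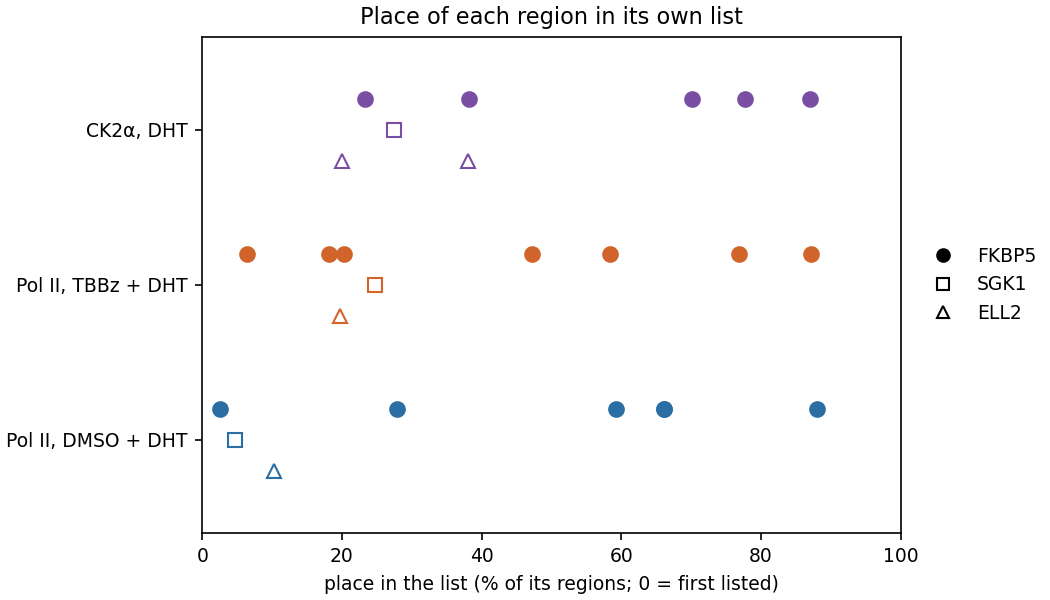
Place of each region in its own list, as a percentage of that list with 0 the first listed, for CK2α, Pol II with TBBz and Pol II with DMSO from top to bottom; symbols stand for genes. The first Pol II regions of FKBP5 lie at 6.38% with TBBz and 2.58% with DMSO, and the FKBP5 regions reach 87.2% and 88.0%; a pair of DMSO symbols at 66.2% coincides.

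The remaining FKBP5 regions were spread over their lists. With TBBz, the second region of the leading pair stood at 47.2% of the list, the shared downstream site at 58.3%, and chr6:35578654-35578854 and chr6:35558348-35558548 at 76.9% and 87.2%. With DMSO, the second region of the pair stood at 27.8%, the shared downstream site at 59.3%, both chr6:35569050-35569250 and chr6:35536713-35536913 at 66.2%, and chr6:35635956-35636156 at 88.0%. CK2α stood at 23.3% in the upstream site and 38.2% at the shared downstream site, and its regions at chr6:35578541, chr6:35595076 and chr6:35642447 at 70.2%, 77.7% and 87.0%. The 2 upstream TBBz-only regions followed directly on the leading region among the FKBP5 regions of their list, at 18.2% and 20.3%.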

How the data were processed

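ChIP-seq regions of 3 LNCaP libraries were used. Per the submitters' processing notes, reads were aligned with Bowtie to hg19 and regions were called with HOMER, with no version stated. The authors called each library by itself, per the file headers, and the command names no control. Regions were 200 bp in size and at least 500 bp apart, at a false discovery rate of 0.001, and had to exceed the surrounding 10 kb by 4-fold. That last step removes sites in broad signal, so the lists say little of Pol II along gene bodies. The deposited score is 1 for every region and was not used; places in the list served instead.

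Starts, which count from 0 in the lists, were raised by 1. Gene starts were not placed in hg19, and windows were divided into 3 equal parts along the strand. A part of a window therefore need not be the start, middle or end of the gene. Overlap meant at least 1 bp. Shares have exact Clopper-Pearson 95% intervals. The members, windows and motifs were chosen with earlier results of these data known. Named regions were all CK2α regions and, per gene and list, the first listed, those nearest the window's edges and the first unpartnered; the other Pol II regions were added after their values were seen. Comparisons with named pathway genes, which need an hg19 annotation, were not made. The functions were tested on simulated data. The software was SciPy 1.17.1, pandas 2.3.3, NumPy 2.4.6 and Matplotlib 3.10.9 under Python 3.11.15.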

Additional observations from a re-analysis of the deposited data

How the results depend on the processing

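Of 96 recomputed counts, 74 stayed within 1.5 times the reported one and 22 did not. Equal numbers of Pol II regions, windows narrowed by 5 kb and windows widened by 10 kb at each side moved none. These settings gave 21, 18 and 18 of the 74, and they could hardly move a count. The last TBBz region of these genes stood at place 21604, within the 21819 places kept. The centre nearest to an edge lay 6.813 kb inside its window, and the nearest outside lay 15.362 kb away. With 50% overlap of the shorter region 1 of 8 CK2α regions had a Pol II partner (27.0% of the whole list), with centres within 500 bp it was 5 (73.2%) and within 2 kb it was 6 (83.6%). Within 2 kb 2 of 8 DMSO regions had no TBBz partner (13.9%). With the first 50% of each list FKBP5 kept 2 CK2α, 4 TBBz and 2 DMSO regions. There 3 of 6 TBBz and 1 of 4 DMSO regions lacked a partner (27.0% and 17.0% of the shortened lists), and 1 of 5 CK2α regions had one (42.2%). The middle parts of the windows held 0 CK2α and 0 DMSO regions. Their end parts held 1 TBBz and 1 DMSO region, both in the SGK1 window. With windows divided into 5 parts and the inner ones pooled, the counts in the first, the middle and the last part were 3, 4 and 2 with TBBz and 1, 5 and 2 with DMSO, and CK2α had 5 in the middle and 1 in the last. Wider partner rules and shorter lists change these counts by construction. The alternative that uses annotated hg19 starts and ends was not run. No paired analysis was possible because there is only 1 library for each group. Tags were not subsampled, so what the lower depth with DMSO limits was not tested.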

Other observations

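The next regions beyond the windows lay between 15.362 and 369.424 kb from an edge. Upstream of the FKBP5 window the nearest centre was 286.14 kb from the edge for CK2α, 178.82 kb for Pol II with TBBz and 40.307 kb for Pol II with DMSO. Upstream of SGK1 the distances were 297.538, 55.486 and 298.034 kb in the same order of libraries, and upstream of ELL2 they were 369.424, 139.754 and 363.63 kb. Downstream of ELL2, Pol II stood 16.969 kb beyond the edge with TBBz and 15.362 kb with DMSO, late in both lists at places 22371 and 21361, while the nearest CK2α centre was 115.528 kb away. Downstream of SGK1 both Pol II lists had their nearest region at almost the same distance, 99.819 kb with TBBz and 99.753 kb with DMSO.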
